A study of Mus musculus with 16 samples.

Results

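The genes described here are 7 granzymes (Gzma, Gzmb, Gzmc, Gzmd, Gzme, Gzmf and Gzmk), perforin (Prf1) and Nkg7, which together make up the killing machinery stored in the granules of cytotoxic lymphocytes. They were taken by gene symbol from a deposited table of messenger RNA levels, in which 9 of 9 were found among 18929 genes. All 9 also reached the minimum set for testing, 0.5 FPKM in at least 4 tumors, as did 12850 genes of the table. Gzme did so only through the group in which it was highest, as described below. FPKM is the number of sequenced fragments of a gene scaled to the length of its transcript and to the total of the library, so levels of different genes can be set side by side.

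The RNA came from 16 tumors of B16F10, a mouse melanoma cell line, grown in female C57BL/6 mice aged 7 to 8 weeks after injection of 500000 cells into the right abdomen. The 4 groups of 4 tumors are labelled Vehicle, alpha_KG (written α-KG), PD1mAb (anti-PD1) and aKG_PD1mAb (α-KG + anti-PD1, also called combination tumors). Per the study, vehicle mice received corn oil with an isotype control IgG. The other mice received an antibody that blocks the inhibitory receptor PD1 on T cells, α-ketoglutarate (α-KG, a metabolite of the tricarboxylic acid cycle) at 100 mg/kg into the peritoneum, or both, for 9 to 11 days from a tumor volume of about 50 cubic millimeters. The antibody control given with α-KG alone and the solvent given with anti-PD1 alone are not stated. Of 6 mice per group, 4 independent tumors were sequenced, and all tumors descend from 1 transplanted cell line in hosts with an intact immune system. Whole tumors were used, so fewer cells of a type and less RNA per cell cannot be told apart in any value below.

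Cytotoxic T cells and natural killer (NK) cells kill a target by releasing granules into the contact between the cells. Perforin opens pores in the membrane of the target, granzymes enter through them and cleave proteins inside, and Nkg7 is a granule membrane protein needed for efficient release. Granzyme B cuts after aspartate and activates caspases, granzymes A and K cut after basic residues, and the rodent granzymes C, D, E and F are close relatives of granzyme B with narrower or less studied activities. In mouse T cells, Gzmb is induced soon after activation, whereas Gzmc to Gzmf are known for strong and prolonged stimulation.

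The 7 granzyme genes lie in 2 clusters. On the GRCm38.p6 assembly of RefSeq, Gzma (chr13:113093824-113100981) and Gzmk (chr13:113171630-113180965) sat beside each other within 87.1 kb of the minus strand of chromosome 13. A cluster of 145 kb on the minus strand of chromosome 14 held 7 coding genes in the order Gzme (chr14:56117619-56120625), Gzmd (chr14:56129556-56132603), Gzmg, Gzmn, Gzmf (chr14:56205263-56211407), Gzmc (chr14:56231397-56241647) and Gzmb (chr14:56258836-56262334). Prf1 (chr10:61297751-61304684) and Nkg7 (chr7:43437138-43438246) lay alone on plus strands.

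The promoters set Gzmc to Gzmf apart from Gzmb, although all 5 are neighbors. The 4 promoters were 73.5% to 93.4% identical to each other over 300 bases, 250 of them before the annotated start, and 43.3% to 46.9% identical to the Gzmb promoter. The promoters of Gzma or Gzmk were 43.6% to 49.4% identical to those of the other granzymes, much the same level. A run of 20 bases, GAAGCAGAGGTGCATAGGTT, occurred in the promoters of Gzmc, Gzmd, Gzme, Gzmf and Gzmg and in none of the rest of the 32851 RefSeq promoters, which belong to 27025 genes. This run was chosen as the longest one shared by the 250 bases before the starts of Gzmc, Gzmd, Gzme and Gzmf. Its presence in these 4 promoters was therefore fixed by the choice. Windows of 100 bases are printed 5′ to 3′ on the minus strand to show this shared block, in capitals, beside the promoters of Gzmb, Gzma and Gzmk, which lack it. They cover chr14:56234658-56234757 (Gzmc), chr14:56132598-56132697 (Gzmd), chr14:56120631-56120730 (Gzme), chr14:56211433-56211532 (Gzmf), chr14:56159600-56159699 (Gzmg), chr14:56262335-56262434 (Gzmb), chr13:113100982-113101081 (Gzma) and chr13:113180966-113181065 (Gzmk) of GRCm38.p6.
Gzmc: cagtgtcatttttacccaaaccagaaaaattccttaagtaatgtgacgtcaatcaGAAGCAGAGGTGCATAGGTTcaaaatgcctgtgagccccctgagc
Gzmd: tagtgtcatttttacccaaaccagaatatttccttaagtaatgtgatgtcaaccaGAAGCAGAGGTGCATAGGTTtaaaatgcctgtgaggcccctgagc
Gzme: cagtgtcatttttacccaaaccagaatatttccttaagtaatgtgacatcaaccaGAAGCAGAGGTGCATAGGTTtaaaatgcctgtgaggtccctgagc
Gzmf: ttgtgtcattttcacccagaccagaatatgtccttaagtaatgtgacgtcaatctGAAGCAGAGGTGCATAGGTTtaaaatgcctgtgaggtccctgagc
Gzmg: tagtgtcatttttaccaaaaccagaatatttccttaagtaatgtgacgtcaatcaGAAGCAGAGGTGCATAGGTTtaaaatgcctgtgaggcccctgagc
Gzmb: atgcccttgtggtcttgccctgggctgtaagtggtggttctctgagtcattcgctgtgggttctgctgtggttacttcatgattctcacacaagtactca
Gzma: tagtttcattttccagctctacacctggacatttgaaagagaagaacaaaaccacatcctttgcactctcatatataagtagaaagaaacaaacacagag
Gzmk: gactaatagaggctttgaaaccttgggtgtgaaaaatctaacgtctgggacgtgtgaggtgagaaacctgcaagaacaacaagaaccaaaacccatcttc

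The block began 45, 49, 50, 70 and 65 bases before the annotated start of Gzmc, Gzmd, Gzme, Gzmf and Gzmg. The Gzmc start used is that of a shorter transcript, so its window lies inside the annotated gene. Short motifs were searched on both strands. The cyclic AMP response element TGACGTCA, found in 1.79% of all promoters, was present just upstream of the block in Gzmc, Gzmf and Gzmg and absent from the windows of Gzmd and Gzme. Its shorter core ACGTCA, which overlaps it and was in 7.51% of all promoters, was also found in Gzmb and Prf1. The AP-1 motif TGANTCA, in 7.81% of all promoters, was present in Gzmb and in no other member. The RUNX motif AACCACA, in 5.27% of all promoters, was found in Gzma, Gzmb and each of Gzmc to Gzmf, and the T-box motif GGTGTGA, in 3.98%, in Gzmk and Nkg7. A letter match is a description of the sequence and not evidence of a bound factor.

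The transcripts of Gzmc to Gzmf are also alike, which limits how surely reads can be given to 1 of them. Their annotated transcripts were 68.1% to 90.0% identical, against 44.3% to 47.1% with that of Gzmb. Transcripts of Gzma or Gzmk were 40.1% to 49.3% identical to those of the other granzymes, a range that includes the Gzmb values. Of all stretches of 50 bases, 21.9% of those in Gzmd, 20.6% in Gzme, 7.36% in Gzmf and 4.14% in Gzmc occurred exactly in another gene, and 0% of those in Gzma, Gzmb, Gzmk, Prf1 and Nkg7. The read length is not given in the sources used here, so the split among Gzmc to Gzmf is less certain than their sum.

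Among the genes outside the chromosome 14 cluster, Gzma was almost absent from vehicle tumors. It stood at 0.46, 0.44, 0.08 and 0 FPKM in vehicle tumors 1 to 4, at 1.72, 3.46, 6.17 and 1.08 in anti-PD1 tumors and at 1.7, 1.84, 0.62 and 0.81 in α-KG tumors. In combination tumors it reached 31.4, 3.94, 29.5 and 1.56 FPKM. Every treated tumor lay above every vehicle tumor, and the combination tumors spanned the widest range. Gzmk was the weaker neighbor, at 0.44, 0.35, 0 and 0 FPKM in vehicle, 0.29, 2.48, 2.21 and 1.38 under anti-PD1, 0.6, 2.47, 0.69 and 0.14 under α-KG and 12.3, 3.03, 11.4 and 0.48 in combination tumors. Its lowest combination tumor, number 4, was barely above the highest vehicle tumor and below 3 of the 4 anti-PD1 tumors.

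Gzmb, the main killing protease, had the highest mean of the granzymes in each group. Its levels were 4.51, 3.19, 0.09 and 0.31 FPKM in vehicle, 2.26, 11.3, 17.1 and 3.27 in anti-PD1 and 3.98, 5.35, 1.99 and 1.74 in α-KG tumors. They were 139, 35.2, 107 and 12.8 FPKM in combination tumors, a mean of 73.5 ± 59.4 (SD, n = 4) against 2.03 ± 2.18 in vehicle tumors. The 4 combination tumors lay above all vehicle and all α-KG tumors, but the lowest of them lay below the highest anti-PD1 tumor.

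Gzmc was the most abundant of the Gzmc to Gzmf genes by its group mean, except in anti-PD1 tumors, where Gzmf stood next to it at 3.34 ± 3.54 against 3.25 ± 2.40 FPKM (SD, n = 4). Gzmc was at 2.41, 2.06, 0.15 and 0.29 FPKM in vehicle, 1.51, 5.39, 5.25 and 0.86 under anti-PD1, 1.38, 0.3, 0.82 and 1.09 under α-KG and 49.9, 9.13, 34.9 and 3.06 in combination tumors. Gzmf was at 2.3, 0.88, 0.5 and 0.66 FPKM in vehicle, 0.35, 7.57, 4.95 and 0.48 under anti-PD1, 0.18, 0.31, 0.12 and 0.09 under α-KG and 46.7, 9.07, 24.1 and 4.51 in combination tumors. For Gzmf, the highest α-KG tumor lay below the lowest vehicle tumor, a pattern that the other 8 genes did not have, although all but 1 of these 8 values were under 1 FPKM.

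Gzmd and Gzme were lower. Gzmd was at 1.54, 1.34, 0.11 and 0.32 FPKM in vehicle, 0.12, 4.28, 3.17 and 0.39 under anti-PD1, 0.1, 0, 0.12 and 0.29 under α-KG and 17.3, 2.79, 10.1 and 1.46 in combination tumors. Gzme was at 0.6, 0.38, 0.11 and 0.15 FPKM in vehicle, 0.33, 2.09, 1.11 and 0 under anti-PD1, 0, 0.1, 0.24 and 0.12 under α-KG and 11.6, 2.66, 6.71 and 1.21 in combination tumors. Neither gene reached 0.5 FPKM in an α-KG tumor, and the lowest combination value of Gzmd fell between the vehicle values. Gzme reached 0.5 FPKM in 1 vehicle, 2 anti-PD1 and 4 combination tumors. It thus passed the minimum for testing only through the combination group.

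Prf1, the pore former, was at 2.53, 1.16, 0.03 and 0.07 FPKM in vehicle, 0.98, 5.12, 8.13 and 2.15 under anti-PD1, 1.23, 3.4, 0.88 and 0.53 under α-KG and 51.1, 14.4, 55.45 and 6.6 in combination tumors. Its mean in combination tumors, 31.9 ± 24.95 FPKM (SD, n = 4), was 33.7 times the vehicle mean of 0.948 ± 1.18. Nkg7 was at 3.82, 2.49, 0.09 and 0 FPKM in vehicle, 3.94, 14.9, 23.6 and 8.91 under anti-PD1, 2.88, 14.95, 2.18 and 1.37 under α-KG and 135, 40.3, 111 and 13.9 in combination tumors. For both genes the combination tumors lay above every vehicle tumor, and for Nkg7 so did the anti-PD1 tumors.

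**Figure D1:**
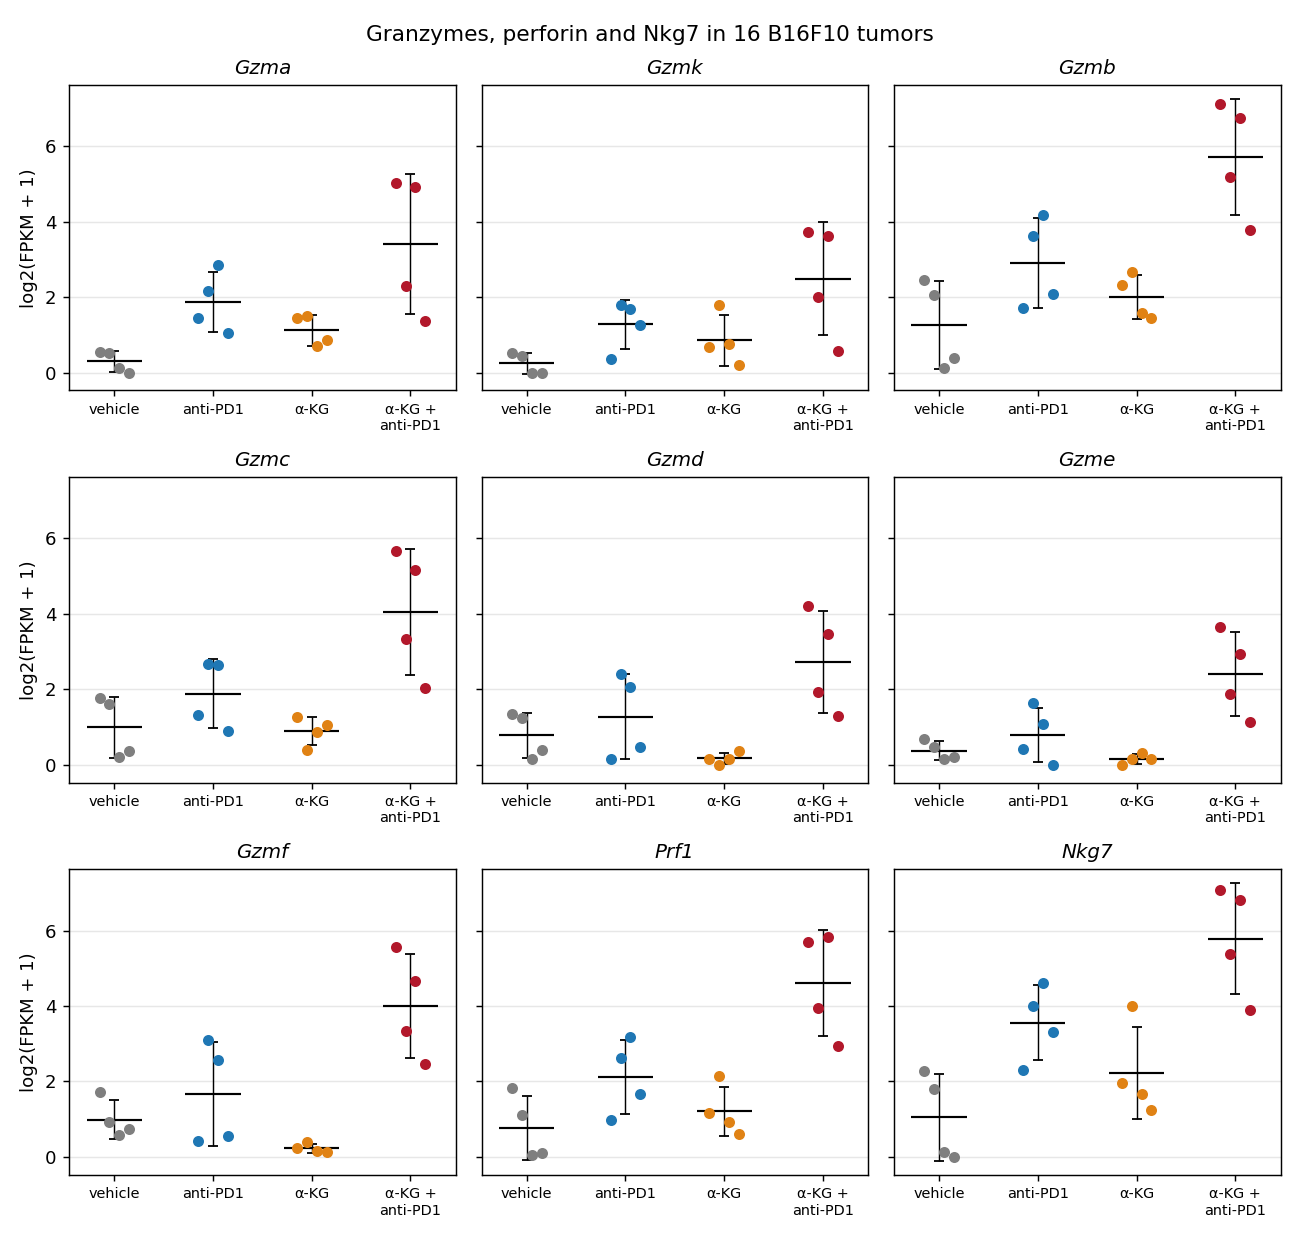
Each panel plots log2(FPKM + 1) of 1 gene in 16 B16F10 tumors by group, with points for tumors, horizontal lines for group means and bars for the SD of 4 tumors. In all 9 panels the α-KG + anti-PD1 group has the highest mean and the widest or nearly the widest spread, and its tumor 4 is the lowest of the group.

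The order of the group means was shared in part. The combination had the highest mean and anti-PD1 the next for 9 of 9 genes. α-KG came next for Gzma, Gzmb, Gzmk, Prf1 and Nkg7 and last for Gzmc, Gzmd, Gzme and Gzmf, for which vehicle came before it. Tumors of a group also ranked alike across genes. In the combination group tumors 1 and 3 were the highest pair and tumor 4 the lowest for 9 of 9 genes, in the anti-PD1 group tumors 2 and 3 were the highest pair for 9 of 9, and in the vehicle group tumors 1 and 2 were above tumors 3 and 4 for 9 of 9. The order in the combination group was not particular to these genes, as Cd8a, Cd8b1, Cd3e, Cd4, Ptprc and Ncr1 had it too. The share of all genes with such orders was not counted.

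The combination was compared with vehicle to ask what both treatments together left in the tumors, and 9 of 9 genes rose, where 34.9% of all tested genes were called higher. Differences are given as log2 fold changes of FPKM + 1, an addition that understates the change of genes near 0, and were tested with limma and Benjamini-Hochberg adjustment over all 12850 genes. Nkg7 rose by 4.74 (SE 0.76, adjusted p = 0.000489), Gzmb by 4.45 (SE 0.73, adjusted p = 0.000532) and Prf1 by 3.83 (SE 0.63, adjusted p = 0.000541). Gzma rose by 3.11 (SE 0.65, adjusted p = 0.00182) and its neighbor Gzmk by 2.24 (SE 0.56, adjusted p = 0.00516). Of the Gzmc to Gzmf genes, Gzmc rose by 3.06 and Gzmf by 3.02 (adjusted p = 0.00218 and 0.00179), and Gzme by 2.03 and Gzmd by 1.94 (adjusted p = 0.00189 and 0.0138). Gzme passed the filter only through the combination tumors, so its calls as higher in the combination, here and below, are not independent of that filter.

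In 8 of 9 genes, all but Gzmd, each combination tumor exceeded each vehicle tumor, where 28.2% of all tested genes showed this. The median log2 fold change of the 9 genes was 3.06 and that of all tested genes 0.15. The 9 calls held in each of 16 fits that left out 1 tumor and in each of 7 other processing alternatives.

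Against anti-PD1 alone, the comparison that asks what α-KG adds to the antibody, part of the set passed. Gzmb was higher in combination tumors by 2.81 (SE 0.73), Prf1 by 2.49 (SE 0.63), Gzmf by 2.34 (SE 0.63), Gzmc by 2.16 (SE 0.66) and Gzme by 1.62 (SE 0.43). Their limma adjusted p values ran from 0.0230 for Prf1 to 0.0402 for Gzmc. The values of Nkg7 (2.23, adjusted p = 0.0566), Gzma (1.53, 0.111), Gzmd (1.45, 0.0939) and Gzmk (1.21, 0.142) were positive and did not pass. The calls covered 5 of 9 genes, where 14.2% of all tested genes were called higher. In 0 of 9 genes did the tumors of the 2 groups separate fully, where 13.6% of all genes did.

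These 5 calls depended on single tumors. They fell to 0 of 9 in each fit without anti-PD1 tumor 1, anti-PD1 tumor 4, combination tumor 1 or combination tumor 3, rose to 9 of 9 without combination tumor 4, and were 0 when only the 8 tumors compared entered the fit and 2, Gzme and Gzmf, with a pseudocount of 0.1.

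Against α-KG alone, the comparison that asks what the antibody adds to α-KG, 9 of 9 genes were higher in combination tumors, where 31.8% of all tested genes were called higher. Gzmf differed by 3.78 (SE 0.63, adjusted p = 0.000764), Gzmb by 3.71 (SE 0.73, adjusted p = 0.00181), Nkg7 by 3.57 (SE 0.76, adjusted p = 0.00275) and Prf1 by 3.39 (SE 0.63, adjusted p = 0.00140). Gzmc differed by 3.16, Gzmd by 2.56 and Gzme by 2.25, with adjusted p from 0.00151 to 0.00389. Gzma differed by 2.28 (adjusted p = 0.0129) and Gzmk by 1.63 (adjusted p = 0.0320).

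In 6 of 9 genes, Gzmb, the 4 of the Gzmc to Gzmf group and Prf1, the tumors of the 2 groups did not overlap, where 29.7% of all genes showed this. The Gzmk call was the only one of the 9 lost under any alternative that was run. It was lost in the fits without α-KG tumor 1, 3 or 4 or combination tumor 1 or 3 (adjusted p of at most 0.107), with a pseudocount of 0.1, without the filter on low values, with quantile normalization, with median centring and with only the 8 tumors compared.

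Neither treatment alone gave a call for any of the 9 genes against vehicle. The comparisons with vehicle share its 4 tumors, as those of the combination share theirs. For anti-PD1 the log2 differences were positive throughout, from 0.41 for Gzme and 0.49 for Gzmd to 1.58 for Gzma, 1.64 for Gzmb and 2.51 for Nkg7. With limma and adjustment 0 of 9 passed, where 0.467% of all genes were called higher, and Gzma, Gzmb and Nkg7, 3 of 9, had an unadjusted p under 0.05. Gzma and Nkg7 were higher in each anti-PD1 than in each vehicle tumor, where 5% of all genes were. Nkg7 passed in the fit without vehicle tumor 1 (2.91, adjusted p = 0.0433), and in no other fit did a gene of the 9 pass.

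For α-KG alone the sign differed between Gzmc to Gzmf and the other 5 genes, although that of Gzmc was not stable and those of Gzmk, Prf1 and Nkg7 were smaller without 1 tumor. Gzma (0.83), Gzmb (0.74), Gzmk (0.62), Prf1 (0.44) and Nkg7 (1.17) had positive log2 differences from vehicle, and Gzmc (-0.10), Gzmd (-0.61), Gzme (-0.22) and Gzmf (-0.76) negative ones. Adjusted p values from limma lay between 0.327 and 0.943, and 0 of 9 had an unadjusted p under 0.05, where 8.4% of all genes were called higher and 7.53% lower. Gzma was higher in each α-KG than in each vehicle tumor, where 10.1% of all genes were, and Gzmf was lower in each, where 10.4% were. The sign of Gzmc turned to 0.07 with a pseudocount of 0.1, and to 0.16, 0.11 and 0.07 in the fits without vehicle tumor 1, vehicle tumor 2 or α-KG tumor 2. Without α-KG tumor 2, Prf1 was at 0.13, Gzmk at 0.30 and Nkg7 at 0.57, still positive. With only the vehicle and α-KG tumors in the fit, Gzma passed (0.83, adjusted p = 0.0302).

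**Figure D2:**
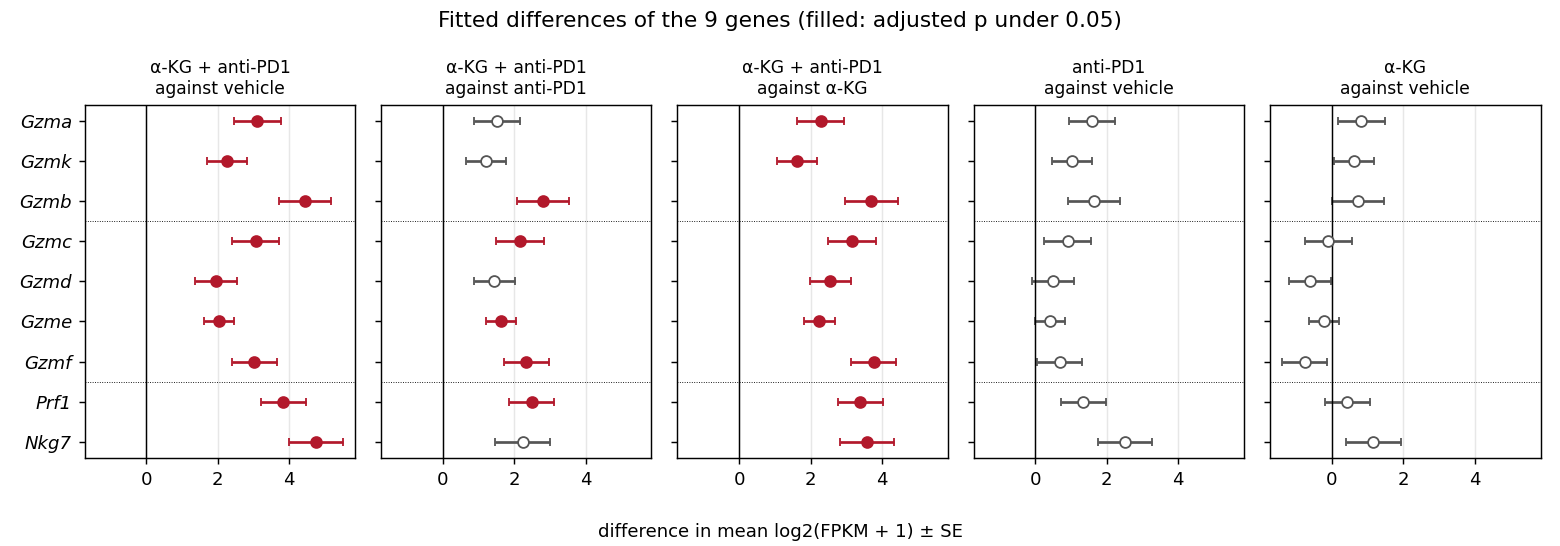
Points are fitted differences in mean log2(FPKM + 1) for 9 genes in 5 comparisons of 4 tumors each, bars are the SE, and filled points have a limma adjusted p under 0.05. Filled points number 9, 5 and 9 in the comparisons of the combination and 0 in those of either treatment alone against vehicle, and dotted lines part Gzma, Gzmk and Gzmb from Gzmc to Gzmf and from Prf1 and Nkg7.

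The interaction, that is, the effect of anti-PD1 in the presence of α-KG minus its effect in the absence of α-KG, was positive for all 9 genes and was called for Gzmf alone. Its value for Gzmf was 3.10 (SE 0.89, limma adjusted p = 0.0373), against a call rate of 7.99% of all genes with a positive interaction. The values of Gzmc (2.26), Gzmb (2.07), Gzmd (2.06), Prf1 (2.05) and Gzme (1.85) had adjusted p from 0.0592 to 0.193, and those of Nkg7 (1.07), Gzma (0.70) and Gzmk (0.59) from 0.530 to 0.647. The last 3 turned to -0.06, -0.42 and -0.23 with a pseudocount of 0.1. The Gzmf call was lost without the filter on low values (adjusted p = 0.0644) and in 12 of 16 fits that left out 1 tumor, all except those without anti-PD1 tumor 2 or 3 or combination tumor 2 or 4. In the fit without combination tumor 4, Gzmc, Gzmd, Gzme and Gzmf passed.

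Vehicle and treated tumors differed in the makeup of their granzyme transcripts. Summed over the 7 granzymes, FPKM ran from 1.04 to 12.3 in vehicle, 6.58 to 39.99 under anti-PD1, 4.28 to 10.4 under α-KG and 25.03 to 308 in combination tumors. Gzmc to Gzmf made up 55.9%, 53.9%, 83.7% and 82.1% of this sum in vehicle tumors 1 to 4 and 20.9%, 6.85%, 28.3% and 37.1% in α-KG tumors. They made up 35.1%, 52.8%, 36.2% and 23.2% in anti-PD1 and 40.8%, 35.9%, 33.8% and 40.9% in combination tumors. Each vehicle tumor had a larger share of Gzmc to Gzmf than any treated tumor, but vehicle tumor 2 at 53.9% barely exceeded anti-PD1 tumor 2 at 52.8%. The largest shares, of vehicle tumors 3 and 4, rest on sums of 1.04 and 1.73 FPKM and are the least precise. The combination tumors were close to one another although their sums were far apart.

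Set against Gzmb, the sum of Gzmc to Gzmf was 1.52, 1.46, 9.67 and 4.58 times its level in vehicle tumors and 0.417, 0.133, 0.653 and 0.914 times in α-KG tumors. It was 1.02, 1.71, 0.845 and 0.529 times in anti-PD1 and 0.905, 0.672, 0.706 and 0.803 times in combination tumors. α-KG tumor 2 stood at the low end, with the highest Gzma, Gzmb, Gzmk, Prf1 and Nkg7 of its group and Gzmd listed at 0. Ratios of vehicle tumors 3 and 4 rest on values of 0.09 and 0.31 FPKM of Gzmb and are the least precise. These shares are a description, and the difference between the 2 gene groups was not tested.

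**Figure D3:**
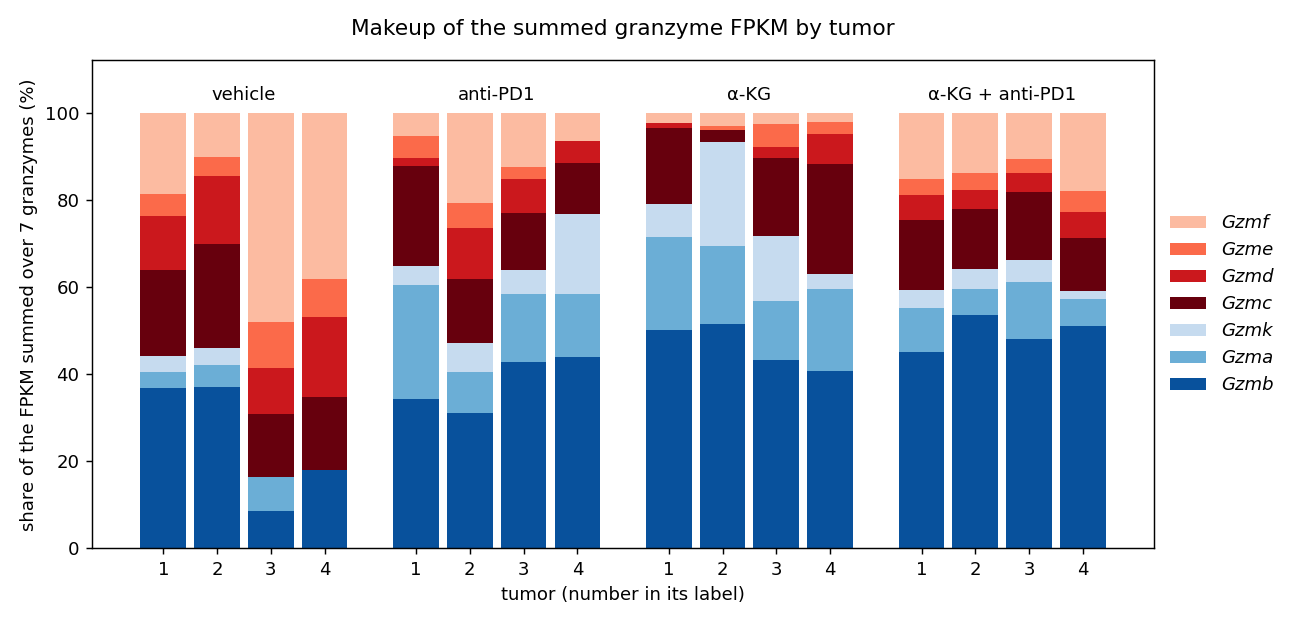
Stacked bars give the percent of FPKM summed over 7 granzymes that each gene took in each of 16 tumors, with Gzmb, Gzma and Gzmk in blue and Gzmc to Gzmf in red. The red part covers 53.9% to 83.7% in vehicle, 23.2% to 52.8% under anti-PD1, 6.85% to 37.1% under α-KG and 33.8% to 40.9% in combination tumors.

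The table held 2 granzymes outside the set. Gzmg, which carries the same promoter block and lies within the chromosome 14 cluster, had means of 0.485 ± 0.364 FPKM in vehicle, 1.17 ± 1.07 under anti-PD1, 0.330 ± 0.378 under α-KG and 3.37 ± 2.41 in combination tumors (SD, n = 4), and rose in combination against vehicle tumors by 1.41 (limma adjusted p = 0.0105). Gzmm, which lies on chromosome 10 and is known from NK cells and innate-like T cells, ranged from 0.18 to 1.21 FPKM in vehicle and from 0.74 to 1.5 in combination tumors, with a difference of 0.41 (adjusted p = 0.143). Gzmn was not analysed here.

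Genes of the granule itself were read from hand-written lists. In combination against vehicle tumors, 34.9% of all tested genes were called higher. Of 10 genes for other granule contents and their processing, 6 were higher and 0 lower in this comparison, with a median of 1.25. Those with the largest changes were Cst7, an inhibitor of the cathepsins that activate granzymes (2.77, limma adjusted p = 0.000680), Ctsw, a cathepsin of cytotoxic cells (2.58, 0.00210), and Srgn, the proteoglycan serglycin on which granzymes are packed (2.22, 0.000476). Srgn departed from the granzymes in α-KG tumors, where it was higher than in vehicle by 4.78 (adjusted p = 2.01e-07) and higher than in combination tumors, the difference of combination from α-KG tumors being -2.56 (adjusted p = 0.000230). Serglycin is also a granule component of neutrophils and mast cells.

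Of 13 genes of granule transport and fusion, 11 were tested. In combination against vehicle tumors 7 were higher and 0 lower, where 34.9% of all tested genes were called higher. The median of the list was 0.46. Unc13d, which primes granules for fusion, rose by 1.63 (limma adjusted p = 0.000863), Sytl2, which tethers them, by 0.92 (0.00149) and Stx11, a fusion protein, by 0.88 (0.00583). Stx11, like Srgn, was also higher in α-KG than in vehicle tumors (1.73, adjusted p = 6.27e-05). The fold changes of this list were small beside those of Prf1 and the granzymes.

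Of 8 transcription factors known to act on cytotoxic genes, 7 were higher and 0 lower in combination than in vehicle tumors. Of all tested genes 34.9% were called higher, and the median of the 8 was 1.14. Runx3 rose by 1.96 (limma adjusted p = 0.00123), Tbx21, which encodes T-bet, by 1.95 (0.00196) and Eomes by 1.62 (0.00114). Against anti-PD1 alone 4 of the 8 passed, where 14.2% of all genes were called higher, Tbx21 (1.28, adjusted p = 0.0471), Runx3 (1.19, 0.0482) and Eomes (1.07, 0.0353) among them, and 0 of all tested genes passed when only the 8 tumors compared entered the fit. In α-KG against vehicle 4 of the 8 were also higher, where 8.4% of all genes were called higher. Runx3 (1.37, adjusted p = 0.0244) was among them, and Tbx21 (0.29, 0.684) and Eomes (0.27, 0.613) were not.

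Of 4 serpins known as granzyme inhibitors, 3 were higher in combination than in vehicle tumors, where 34.9% of all tested genes were called higher. Serpinb9, which blocks granzyme B, rose by 2.16 (limma adjusted p = 0.00131), Serpinb6b by 1.97 (0.00116) and Serpinb9b by 1.53 (0.00868). Of 9 genes that encode granzyme substrates, 2 were higher, below that share, and 2 lower, with a median of -0.16. Of all 12850 tested genes 1348 were called lower. Bid, a trigger of mitochondrial cell death, rose by 0.42 (limma adjusted p = 0.0419), and Parp1, a DNA repair enzyme cut in dying cells, fell by 0.43 (0.0204).

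Markers of the cells that could carry granzymes moved with them. The 7 of 10 T-cell receptor complex and T-cell surface genes that the table held summed to 0.74 to 8.45 FPKM in vehicle, 7.51 to 24.9 under anti-PD1, 5.75 to 31.95 under α-KG and 20.3 to 172 in combination tumors. Both CD8 co-receptor genes rose in combination against vehicle tumors, where 34.9% of all tested genes were called higher. Cd8a rose by 3.26 (limma adjusted p = 0.000641) and Cd8b1 by 3.37 (0.000946). The 7 NK-cell genes summed to 0.13 to 0.49 FPKM in vehicle, 1.12 to 4.2 under anti-PD1, 0.51 to 1.5 under α-KG and 2.13 to 27.7 in combination tumors. Ncr1, which encodes the NK receptor NKp46, was listed at 0 in 3 of 4 vehicle tumors and ranged from 0.36 to 3.08 FPKM in combination tumors. Klre1 ranged from 0 to 0.14 FPKM in vehicle and from 0.46 to 10.5 in combination tumors, and Klra4 from 0.06 to 0.21 and from 0.16 to 2.34. Only 3 of the 7 NK-cell genes reached the minimum for testing, none of them in a vehicle tumor, so no count of calls is given for this list. Their part in the rise of the granzymes was not tested.

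Leukocyte and macrophage markers rose in the combination, and with α-KG alone all of the leukocyte markers and part of the macrophage markers rose too, while the granzymes did not pass. Against vehicle, 6 of 6 leukocyte markers (median 2.94) and 7 of 7 macrophage markers (median 2.49) were higher in combination tumors. The 9 genes had a median of 3.06, and 34.9% of all tested genes were called higher. The part of these markers in the rise of the 9 genes was not tested. Ptprc, the pan-leukocyte marker CD45, was at 4.31, 2.21, 0.65 and 0.88 FPKM in vehicle, 3.27, 8.48, 9.02 and 5.33 under anti-PD1, 16.5, 17.6, 20.1 and 23.5 under α-KG and 37.6, 14.2, 35.45 and 9.34 in combination tumors. It was higher in combination than in vehicle tumors by 3.01 (limma adjusted p = 0.000417) and in α-KG than in vehicle tumors by 2.91 (limma adjusted p = 0.000227), and its value in combination against α-KG tumors was 0.10 (adjusted p = 0.877). In α-KG tumors 6 of 6 leukocyte markers and 4 of 7 macrophage markers were higher than in vehicle, where 8.4% of all tested genes were called higher. Of the T-cell markers 0 of 7 were, of the CD8 markers 0 of 2 and of the granzyme, perforin and Nkg7 genes 0 of 9. At a share of 8.4%, counts of 0 in lists this short do not set them apart from all genes.

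Other cells known to carry granzymes were also looked for. Of 10 mast-cell and basophil genes, 9 were in the table and 7 of these stayed under 1 FPKM in every tumor. The list summed to 42.9 to 117 FPKM in α-KG tumors and 2.33 to 10.0 in the other groups, and Hdc, the histamine-forming enzyme, which neutrophils express too, rose in α-KG against vehicle by 5.39 (limma adjusted p = 1.92e-06). Of 6 plasmacytoid dendritic cell genes, 4 were higher in combination than in vehicle tumors, where 34.9% of all tested genes were called higher. The list sums were 5.5 to 23.1 FPKM in combination against 5.59 to 31.2 in vehicle tumors. Cox6a2 made up most of the vehicle sums and was not called (-0.62, limma adjusted p = 0.295), with a mean of 10.8 ± 12.5 FPKM in vehicle and 5.12 ± 3.48 in combination tumors (SD, n = 4), while Runx2 ranged from 0.22 to 0.43 and from 0.86 to 3.1 FPKM and Siglech from 0.21 to 0.51 and from 0.59 to 2.75. Of 6 gamma-delta T-cell genes 2 were in the table and 0 were tested, with sums of at most 0.23 FPKM. Of 4 CD4 and regulatory T-cell genes, 4 were higher in combination than in vehicle tumors, beside the same 34.9% of all tested genes. The median of the 4 was 1.32.

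Facts of the whole libraries also moved with the group that held the highest granzymes. Melanocyte genes summed to 8103 to 11017 FPKM in all 16 tumors, so the lineage genes of the labelled B16F10 line were present. Red-cell genes summed to 10891 to 11752 FPKM in combination and 23319 to 145323 in the other tumors, and all values of a tumor summed to 514180 to 527812 and 549740 to 654772 FPKM, respectively. The median log2 change of all genes in combination against vehicle tumors was 0.15 as deposited, -0.11 after quantile normalization, -0.16 after median centring and 0.34 at equal FPKM sums, and 9 of 9 genes were called higher under each. Over all genes, 4479 were called higher and 1348 lower as deposited, 2241 and 3994 after quantile normalization, 2197 and 4803 after median centring and 6294 and 250 at equal FPKM sums. Read counts were not analysed here and the depth is unknown, so values under about 1 FPKM, which include most of those of Gzma, Gzmd, Gzme, Gzmf and Gzmk in vehicle and α-KG tumors, have a precision that cannot be given.

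**Figure D4:**
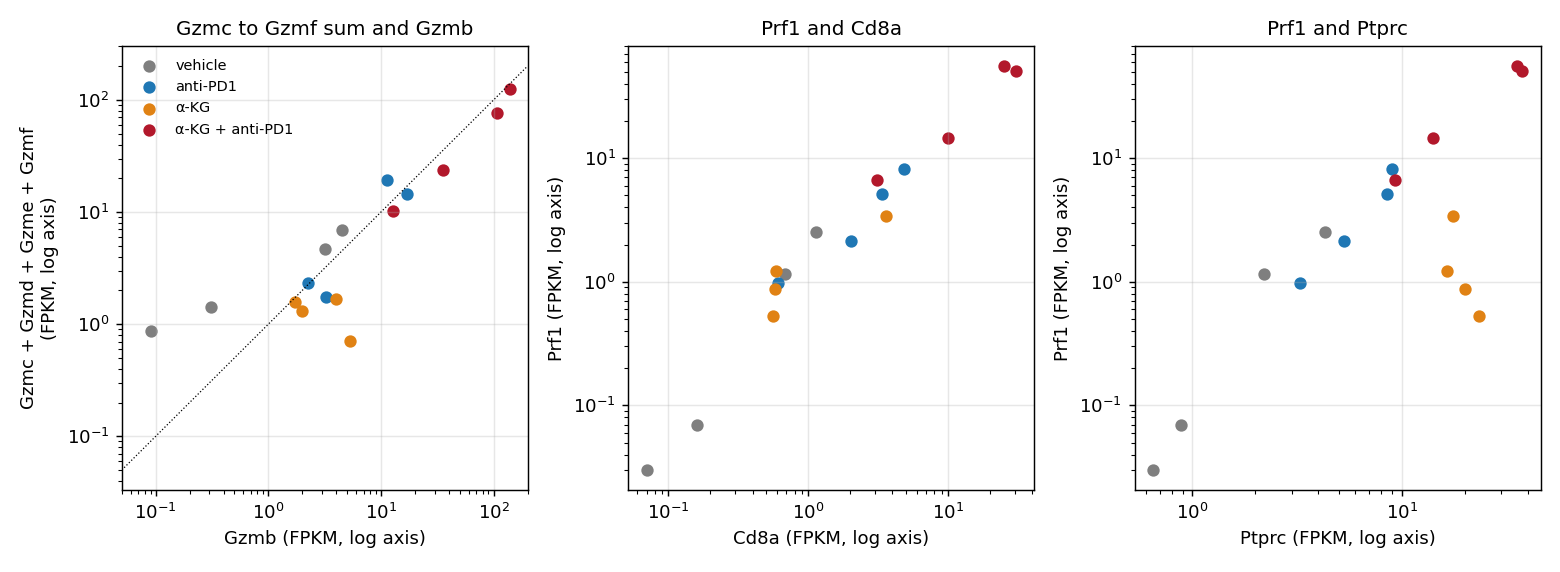
Each point is 1 of 16 tumors on log axes of FPKM, with the sum of Gzmc to Gzmf against Gzmb and a dotted line of equality, Prf1 against Cd8a, and Prf1 against Ptprc. The 4 vehicle tumors lie above the line of equality and the 4 α-KG tumors below it, and the α-KG tumors, with 16.5 to 23.5 FPKM of Ptprc, lie below the other tumors of like Ptprc in Prf1.

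Tumor by tumor, the cytotoxic genes followed Cd8a. On log2(FPKM + 1) values taken as deviations from their group means (n = 16), Pearson's r with Cd8a was 0.965 for Gzmk, 0.958 for Prf1, 0.955 for Nkg7 and 0.906 for Gzmb, and lower for Gzma (0.859), Gzmf (0.827), Gzmd (0.805), Gzme (0.782) and Gzmc (0.758). Spearman's rho was 0.940, 0.909, 0.932 and 0.865 for the first 4 genes in that order. The p of each r came from 100000 two-sided permutations within groups, and adjusted over 18 relations, these 9 and the same 9 with Ncr1, it was at most 0.0296. Without the 2 tumors farthest from the median, combination tumors 1 and 3, r with Cd8a was 0.951 for Gzmk, 0.930 for Prf1, 0.946 for Nkg7 and 0.846 for Gzmb. It was 0.519 for Gzmc and 0.573 for Gzme, which then no longer passed (permutation p adjusted over the relations 0.125 for both), so these 2 relations rest on those tumors.

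With Ncr1, which was at most 3.08 FPKM, r was highest for Gzma (0.961, and 0.847 without the same 2 tumors) and lowest for Nkg7 (0.677 and 0.559). Without those tumors the relations of Gzmc, Gzmd, Gzme, Gzmf and Gzmk with Ncr1 no longer passed (permutation p adjusted over the relations 0.0949 to 0.261). The values share the libraries of 16 tumors, and Cd8a and Ncr1 rose in the same tumors, so T cells and NK cells cannot be told apart as sources of a granzyme.

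Per unit of Cd8a, Gzmb was 3.51 to 4.55 in combination tumors, 1.60 to 3.70 under anti-PD1, 1.47 to 6.75 under α-KG and 1.29 to 4.69 in vehicle tumors. These ranges overlapped, although of the combination tumors only tumor 2 lay within the anti-PD1 range. Prf1 per Cd8a was 1.44 to 2.20 in combination tumors, 1.05 to 1.68 under anti-PD1, 0.937 to 2.08 under α-KG and 0.429 to 2.24 in vehicle tumors, which overlapped. Gzmk per Cd8a was 0.154 to 0.451 in combination tumors and 0.456 to 0.729 under anti-PD1. It was 0.25 to 1.19 in α-KG and 0 to 0.515 in vehicle tumors. Each combination tumor lay below each anti-PD1 tumor, but combination tumor 3 at 0.451 and anti-PD1 tumor 3 at 0.456 were nearly equal. Some of these ratios rest on low Gzmk values, 0.48 FPKM in combination tumor 4 and 0.29 in anti-PD1 tumor 1. Gzma per Cd8a had a median of 0.765 in combination and 1.14 in anti-PD1 tumors, whose ranges of 0.392 to 1.17 and 0.529 to 2.82 overlapped. The sum of Gzmc to Gzmf per unit of Cd8a was 6.06 to 12.4 in vehicle tumors, each above every treated tumor. It was 0.196 to 2.84 in α-KG, 2.36 to 4.12 in combination and 0.848 to 5.69 in anti-PD1 tumors. All ratios of vehicle tumors 3 and 4 to Cd8a rest on 0.07 and 0.16 FPKM of Cd8a and are the least precise. Nkg7 per Cd8a was 4.02 to 4.47 in combination and 4.37 to 6.46 in anti-PD1 tumors. These ratios are descriptions and were not tested.

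The tested genes whose log2(FPKM + 1) over the 16 tumors was most like that of Prf1 were Il2rb (r = 0.991), Lag3 (0.990), Cd8a (0.987), Pdcd1 (0.987) and Cxcl9 (0.986). For Gzmb they were Tapbpl (0.986), Trafd1, Uba7, Il2rb and Tmem229b (all 0.984), for Gzma Klrd1 (0.981), Tbx21 (0.977), Ciita (0.974), Tlr9 (0.974) and Prcp (0.972), and for Gzmc Klrc1 (0.971), Slc29a3 (0.966), Osbpl3 (0.965), Tmco4 (0.964) and Fyn (0.964). Among the 9 genes themselves, r over the 16 tumors was 0.992 for Gzmb with Prf1 and 0.979 for Gzme with Gzmf, and 0.828 for Gzmd with Nkg7. These r values include the differences between groups and are descriptions of likeness.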

How the data were processed

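Poly(A) RNA of 16 tumors was sequenced on a DNBSEQ instrument with dUTP marking of the second strand. The authors deposited FPKM values with 2 decimals for 18929 genes, and all 16 columns were used, matched to the labels by name. The submitters' processing notes name HISAT, Bowtie2 and the build mm10. The program behind the FPKM values, the annotation, the read length and any scaling between tumors are not given in the sources used here. Low values were not spaced in whole steps of 1 fragment (29.7% of 11937 values within 0.15 of a step, where 30% would be by chance), so depth stayed unknown. Pearson's r between tumors of a group was 0.967 to 0.993.

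The 12850 genes that reached 0.5 FPKM in 4 or more tumors were fitted on log2(FPKM + 1), with 1 mean per group over all 16 tumors, by limma 3.58.1 (lmFit, contrasts.fit, eBayes with trend) in R 4.3.3, with Benjamini-Hochberg adjustment over all genes tested and a threshold of 0.05. The fit was tested on simulated data. Replicates are separate tumors. Same-numbered tumors of different groups did not deviate together (9 of 24 pairs over 0.1, r from -0.64 to 0.41), so the numbers were not used as pairs. Correlations, ratios and sequences used Python 3.11.15, numpy 2.4.6, scipy 1.17.1, pandas 2.3.3 and Biopython 1.88, and sequences came from RefSeq (GRCm38.p6), with identity taken from global alignments. The 9 genes are described in full. Of each hand-written list the 3 genes with the largest change in α-KG + anti-PD1 against vehicle could be named (1 gene is not reported here), and Cd8a, Cd8b1, Ncr1, Ptprc, Hdc and Srgn in other comparisons were singled out after their values were seen. The genes and lists were chosen with earlier results of these data known. Alternatives were a pseudocount of 0.1, no filter, quantile normalization, median centring, equal FPKM sums, a replicate block, only the groups compared, and leaving out each tumor.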

Additional observations from a re-analysis of the deposited data

Results flagged for a closer look

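The interaction of Gzmf, the effect of anti-PD1 in the presence of α-KG minus its effect in the absence of α-KG, was 3.10 on the log2(FPKM + 1) scale (limma adjusted p = 0.0373). The test of that difference itself brought it here. Gzmf was the gene that was lower in each α-KG than in each vehicle tumor and higher in each α-KG + anti-PD1 than in each vehicle tumor. These α-KG and vehicle values were under 1 FPKM except for 1 vehicle tumor. In 36 sets of 4 values, 1 for each gene and group, no tumor stood apart from the other 3 by Dixon's test on the log2(FPKM + 1) scale. On the FPKM scale 1 of the 36 did, Nkg7 at 14.95 FPKM in α-KG tumor 2, above the other 3 α-KG tumors. The test flags about 1 in 20 sets by chance.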

How the results depend on the processing

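The 9 of 9 calls in α-KG + anti-PD1 against vehicle were made under each alternative run. Against anti-PD1, 5 of 9 became 2 with a pseudocount of 0.1, 0 with only the groups compared and 0 to 9 with 1 tumor left out (228 to 2937 genes of all tested, against 1987, or 4234 at equal FPKM sums and 0 with only the groups compared). Against α-KG the calls were 8 to 9 with 1 tumor left out. For anti-PD1 against vehicle they were 0 to 1, and for α-KG against vehicle 0, or 1 (Gzma) with only the groups compared. The interaction had 0 calls without the filter, 2 at equal FPKM sums (Gzme joining Gzmf) and 0 to 4 with 1 tumor left out (699 to 2362 genes, against 1429, or 2394 at equal sums). Values that turned sign, none of them called, were Gzmc in α-KG against vehicle (0.074 with a pseudocount of 0.1, from -0.36 to 0.16 with 1 tumor left out, and 0.16, 0.11 and 0.071 without vehicle tumor 1, vehicle tumor 2 and α-KG tumor 2) and, with that pseudocount, the interactions of Gzma (-0.42), Gzmk (-0.23) and Nkg7 (-0.062). With a replicate block, which treats same-numbered tumors as paired, the calls were 9, 5, 9, 0, 0 and 1 of 9, as without it. Of 24 same-numbered pairs 9 correlated over 0.1. Tumors of different numbers were not compared, so this count cannot tell whether the numbers pair the tumors. All genes called in anti-PD1 against vehicle numbered 96, and 312 with a pseudocount of 0.1, 5 without the filter, 201 with median centring, 29 at equal sums, 0 with the block or with only the groups compared and 0 to 885 with 1 tumor left out. In α-KG against vehicle they numbered 2048, and 1246 at equal sums. Calls higher and lower were 1819 and 168 against anti-PD1 (721 and 1082 after quantile normalization, 802 and 1968 after centring) and 4086 and 832 against α-KG (2023 and 2020, 1758 and 3127). The causes were not tested. Unknown depth limits values under about 1 FPKM, and near-identical transcripts limit the split among Gzmc to Gzmf.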
